A study of Rattus norvegicus with 32 samples.

Results

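The genes described here encode the proteasome and the enzymes that attach ubiquitin to proteins or take it off. They were measured in male Sprague-Dawley rats, in the nucleus accumbens, a part of the ventral striatum. Members were the probes whose platform gene symbol begins with Psm a to g and a digit, Ube2, Uba and a digit, Uch or Usp and a digit, and whose detection p was under 0.05 on at least 4 of the 9 arrays at 1 h. They numbered 97 probes for 94 genes, of 9987 probes for 7203 named genes tested. Of 117 probes with a matching symbol, 20 failed the detection filter, 16 of them detected on no array. Every rat received 1 injection, of saline or of 20 mg/kg methamphetamine (METH), which makes nerve endings release dopamine, and tissue was taken after 1 h. The labels give a body weight and no age or genotype. Total RNA was hybridised to Illumina RatRef expression beadchips, with 5 METH and 4 saline arrays on 2 slides. The labels state 5 rats per group but do not tie arrays to rats, so each p-value reflects only how far arrays differed, which may in part be technical. The other 23 arrays of the series, from later times, were not used. Their rows did not pair with the probe IDs: the rank correlation over 22523 probes was 0.925 to 0.961 among the 9 arrays at 1 h and -0.00947 to 0.000616 between these and later arrays.

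Ubiquitin is activated by an E1 enzyme, passed to an E2 conjugating enzyme and joined to a target protein with the help of an E3 ligase. Chains of ubiquitin send the target to the 26S proteasome, a 20S barrel of alpha and beta subunits capped by the 19S particle, whose ATPases unfold the target. Deubiquitinases of the UCH and USP families trim or remove ubiquitin. In mammals the transcription factor encoded by Nfe2l1 is known to raise the genes of most proteasome subunits together through antioxidant response elements in their promoters, and neurons use the system to remodel synapses.

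Promoter sequences are shown for the 7 constitutive 20S beta subunits, all of which were lowest on the same METH array, and for Psmc6 and Psme4, which were highest on it. That of Psmd3, also highest on it, is not shown. Each stretch holds the 150 bases before the start site of RefSeq's promoter table (build GRCr8), written 5′ to 3′ along the gene. Capitals mark the antioxidant response element core TGACNNNGC, the CCAAT box CCAAT and the cyclic AMP response element TGACGTCA, on either strand.
Psmb1, chr1:65134771-65134920, minus strand: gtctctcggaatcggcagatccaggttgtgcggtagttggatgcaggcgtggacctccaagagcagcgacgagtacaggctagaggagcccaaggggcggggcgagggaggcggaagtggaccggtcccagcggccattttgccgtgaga
Psmb2, chr5:144254908-144255057, plus strand: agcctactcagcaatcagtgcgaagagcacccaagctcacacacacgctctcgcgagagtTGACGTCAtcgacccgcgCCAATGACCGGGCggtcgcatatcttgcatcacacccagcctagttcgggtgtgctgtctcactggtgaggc
Psmb3, chr10:83193637-83193786, plus strand: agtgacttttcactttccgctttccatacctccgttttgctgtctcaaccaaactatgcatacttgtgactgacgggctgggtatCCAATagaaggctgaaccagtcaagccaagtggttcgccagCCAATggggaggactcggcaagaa
Psmb4, chr2:185134562-185134711, minus strand: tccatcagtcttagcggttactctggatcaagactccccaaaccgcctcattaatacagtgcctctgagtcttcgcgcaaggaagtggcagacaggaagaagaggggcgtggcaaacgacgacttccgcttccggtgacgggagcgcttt
Psmb5, chr15:32047380-32047529, minus strand: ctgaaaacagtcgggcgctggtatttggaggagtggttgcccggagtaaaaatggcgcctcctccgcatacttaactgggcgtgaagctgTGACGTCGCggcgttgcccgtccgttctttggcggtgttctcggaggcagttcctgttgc
Psmb6, chr10:55737738-55737887, plus strand: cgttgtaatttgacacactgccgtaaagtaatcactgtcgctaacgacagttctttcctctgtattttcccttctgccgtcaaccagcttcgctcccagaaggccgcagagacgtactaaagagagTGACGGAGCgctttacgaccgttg
Psmb7, chr3:42827471-42827620, minus strand: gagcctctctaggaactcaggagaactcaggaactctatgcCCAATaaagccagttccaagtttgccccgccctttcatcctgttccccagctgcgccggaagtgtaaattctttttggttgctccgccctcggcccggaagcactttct
Psmc6, chr15:21022164-21022313, plus strand: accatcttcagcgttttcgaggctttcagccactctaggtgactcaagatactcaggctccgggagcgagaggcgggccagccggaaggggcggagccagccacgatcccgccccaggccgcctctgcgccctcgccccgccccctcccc
Psme4, chr14:108706493-108706642, plus strand: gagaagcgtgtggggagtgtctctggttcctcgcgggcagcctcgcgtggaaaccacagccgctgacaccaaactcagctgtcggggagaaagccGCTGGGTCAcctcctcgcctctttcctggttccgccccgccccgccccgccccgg
In Psmb2 the CCAAT box (bases -72 to -68 before the start) shared its last base with the antioxidant response element (-68 to -60), and the cyclic AMP response element began at -90. Psmb5 had an antioxidant response element at -60 and Psmb6 at -24, whereas these stretches of Psmb1, Psmb4 and Psmc6 held none of the 3 motifs. Over the whole 300 bases from 250 before to 50 after the start, promoters were found for 84 of the 94 member genes. The start equalled the annotated gene start for 39 of these 84, so positions are counted from the promoter table's start alone. The antioxidant response element core was in 24 of these 84, in 4 of 13 promoters of 20S subunits (Psma3, Psmb2, Psmb5 and Psmb6) and in 12.1% of all 33469 promoters. It was in 8 of 35 promoters of proteasome members (22.9%) and in 16 of 48 of the ubiquitin enzymes (33.3%), so it was not particular to the proteasome genes. The CCAAT box was in 9 of the 13, in 27 of the 84 members (32.1%) and in 37.5% of all promoters. The cyclic AMP response element was in 1 member promoter, that of Psmb2, and in 1.83% of all promoters. The AP-1 site TGANTCA, not marked in capitals above, was in 2 of 84 against 7.33% of all. Psmc6 was the 1 proteasome gene of 35 that held it. The Egr site GCGTGGGCG was in 2 of 84 against 0.544%. The 33469 promoters were not limited to genes detected here, as the members were, so these shares come from unlike sets. These are matches of letters in a window, and binding was not measured.

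The arrays had mean deposited intensities of 164.3 to 231.4, and 41.5% to 47.3% of probes were above background. Fos, an activity-induced gene that checks the labels, had normalized log2 levels of 5.11 to 5.83 with saline and of 8.22 to 9.95 with METH. All 10 markers of striatal projection neurons with a named probe were detected, 9 of them on every array, and none of 4 choroid plexus markers was. METH array 5 stood apart from the other 8 arrays across the whole chip. It was the lowest of the 9 arrays for 26.6% of all probes and the highest for 24.3%, where the other arrays were lowest for 7.09% to 12.3% and highest for 6.87% to 11.7%. Estimates that changed sign or moved by over 1.5 times when it was left out are given both ways for the genes whose estimate is printed.

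No proteasome or ubiquitin conjugation gene passed the test 1 h after METH. Of the 97 probes, 0 had an adjusted p under 0.05 (limma over 9987 probes with Benjamini-Hochberg adjustment), where 0.521% of all probes did, and the smallest adjusted p among members was 0.449. An unadjusted p under 0.05 was found for 2 members (Ube2j1 and Usp20), against 11% of all probes. For 0 members did all METH arrays lie on one side of all saline arrays, where 4.26% of all probes were separated in this way. The log2 fold changes, METH minus saline, ran from -0.58 (Ube2b) to 0.47 (Ube2j1), and 50 were above and 47 below 0. Their median was 0.0033, that of all probes tested -0.023.

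The arrays set bounds on how large a change could have gone unseen. The 95% interval of the log2 fold change lay wholly within 1.5-fold either way for 75 of the 97 members, as it did for 67.9% of all probes. The median distance from the estimate to either end of the interval was 0.33 for members and 0.34 for all probes. For the 22 other members a change of 1.5-fold in at least 1 direction was inside the interval. No detected member was below background on all saline arrays, 87 were detected on all 9 arrays, and fold changes of the 10 detected on 4 to 8 arrays are uncertain in size. Changes are on a scale with an offset of 16, which understates those of dim probes. In bulk tissue, fewer cells of a type and less RNA per cell cannot be told apart.

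**Figure D1:**
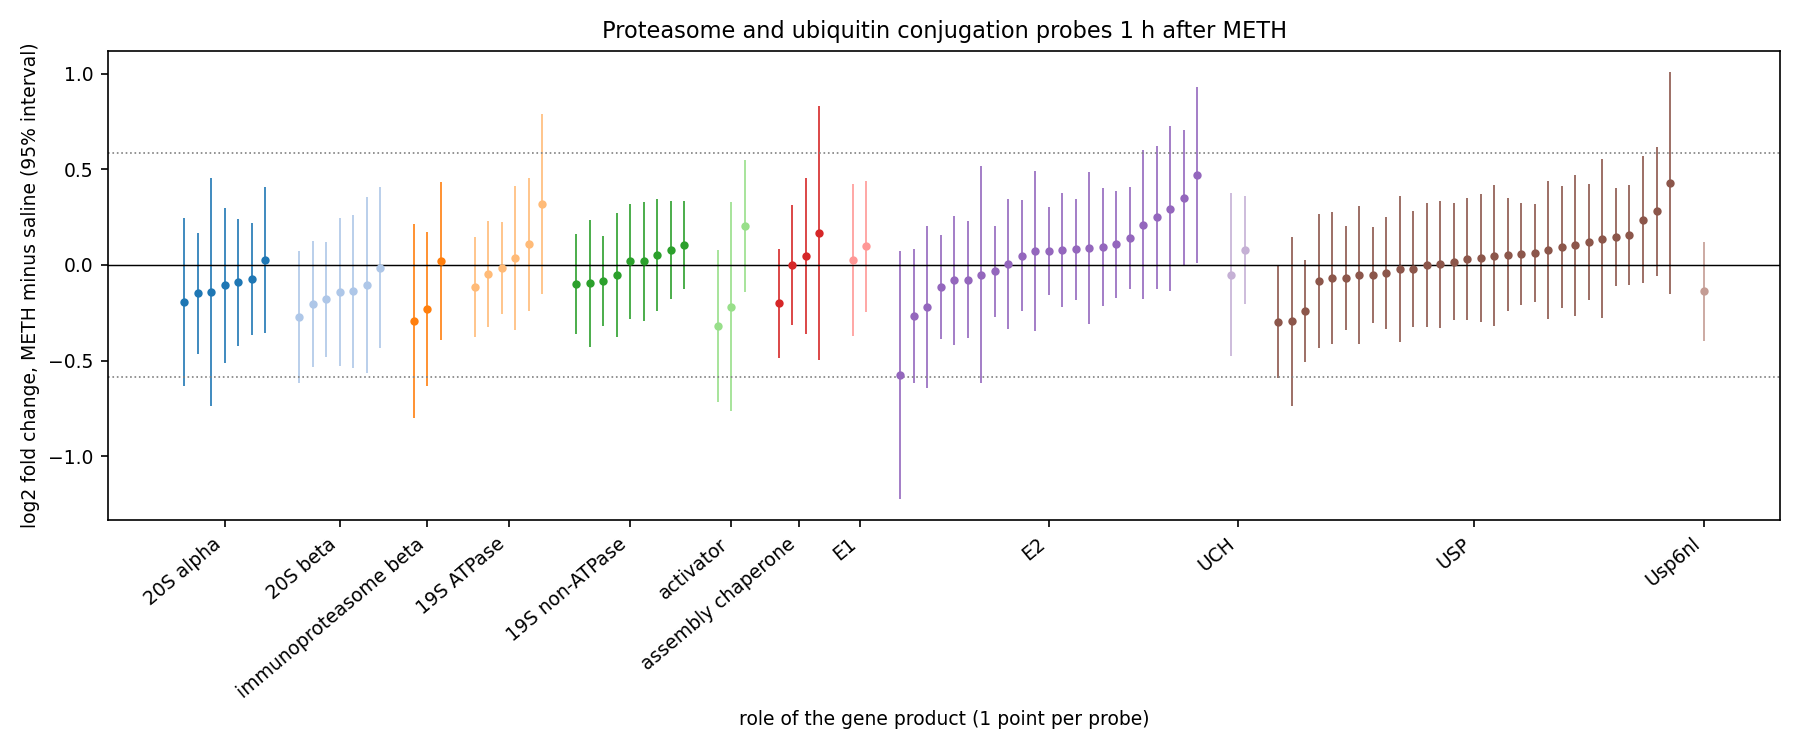
Log2 fold change, METH minus saline at 1 h, of the 97 member probes (points) with 95% intervals (bars), grouped by the role of the gene product and ordered by size within a role; dotted lines mark 1.5-fold either way. The points run from -0.58 for Ube2b to 0.47 for Ube2j1, and 75 of the 97 intervals stay between the dotted lines.

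The 20S core is a stack of rings, with alpha subunits forming the gate and beta subunits the proteolytic chamber. The median log2 fold change of its 14 probes, 1 per gene, was -0.14, and 13 of the 14 estimates were below 0, with 0 past the threshold (smallest adjusted p = 0.569, limma). Psmb5, which carries the chymotrypsin-like active site, had normalized log2 intensities of 10.59, 10.48, 10.55 and 10.35 on saline arrays 1 to 4 and of 10.41, 10.45, 10.81, 10.41 and 9.69 on METH arrays 1 to 5. METH array 5 was thus the lowest of the 9, and METH array 3 the highest. Its log2 fold change was -0.14 ± 0.18 SE (adjusted p = 0.816, n = 5 and 4, limma), and 0.028 without METH array 5.

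Psmb3, a beta subunit without proteolytic activity, had the lowest estimate of the beta class. Its levels were 10.49, 10.56, 10.69 and 10.56 with saline and 10.35, 10.52, 10.47, 10.46 and 9.72 with METH. The groups overlapped through METH array 2, which was above saline array 1. The log2 fold change was -0.27 ± 0.16 SE (adjusted p = 0.569, limma), and -0.13 without METH array 5. Psma7, an alpha subunit, showed the same separation of 1 array, with 11.28, 11.20, 11.05 and 11.01 for saline and 11.11, 11.29, 11.05, 11.11 and 10.14 for METH. Its log2 fold change of -0.19 ± 0.20 SE became 0.0068 without METH array 5. Psma1, the alpha subunit with the highest estimate (0.025 ± 0.18 SE), was lowest on METH array 4 instead, at 6.01 against 6.56 to 6.75 on the other METH arrays.

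The lower values of the core subunits lay on METH array 5. On this array the median deviation of the 14 probes from their saline means was -0.70 on the log2 scale, with all 7 beta subunits between -0.88 and -0.60, while on METH arrays 1 to 4 the median lay between -0.12 and 0.094. Of the 14, 11 were lowest of all 9 arrays on METH array 5, where 26.6% of all probes were. Without this array the class median was 0.011, with 9 estimates above and 5 below 0. Saline array 4 had the next lowest median, at -0.27. Within slide 1, which does not hold METH array 5, the median was -0.027; within slide 2 it was -0.14, and with slide as a block -0.11.

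Immunoproteasome subunits replace the active beta subunits in cells exposed to interferon. Psmb8, which takes the place of Psmb5, had a log2 fold change of 0.021 ± 0.19 SE (0.13 without METH array 5), and its levels were 6.74, 7.24, 6.57 and 7.08 with saline and 7.23, 7.08, 6.69, 7.15 and 6.49 with METH, so that the groups overlapped fully apart from METH array 5. Psmb10, which takes the place of Psmb7, was measured by 2 probes that gave -0.23 ± 0.19 SE and -0.29 ± 0.23 SE. Both were lowest on METH array 5, and neither passed (adjusted p = 0.686 and 0.683, limma). Without that array they gave -0.064 and -0.081, and the median of the 3 immunoproteasome probes went from -0.23 to -0.064. Psmb9 was detected on no array.

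Estimates for the 19S particle lay near 0. Its 6 ATPase probes had a median log2 fold change of 0.012 and its 9 non-ATPase probes 0.019, and all 9 of the latter had intervals within 1.5-fold. Psmc1, an ATPase of the base, was at -0.013 ± 0.11 SE, with levels of 11.87, 11.82, 11.67 and 11.76 with saline and 11.78, 11.89, 11.88, 11.68 and 11.60 with METH, and at 0.028 without METH array 5. Psmd4, a receptor for ubiquitin chains, was at -0.095 ± 0.15 SE, and at 0.037 without METH array 5. Among lid subunits, Psmd11 had the highest estimate (0.10 ± 0.11 SE) and Psmd13 the lowest (-0.10 ± 0.12 SE, and -0.017 without METH array 5). Psmc3, another ATPase, was at -0.11 ± 0.12 SE. On METH array 5 the median deviation was -0.25 for the ATPases and -0.27 for the other 19S subunits.

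Not all 19S subunits were low on that array. While 3 ATPases and 6 other 19S subunits were lowest of the 9 arrays on it, Psmd3 was highest, at 11.67. Psmd3 lay 0.34 above its saline mean there, Psmd2 0.11 and Psmc3 0.017. Psmc6 went furthest the other way. Psmc6 had levels of 5.27, 5.02, 5.59 and 5.37 with saline and of 5.61, 5.39, 5.41, 5.33 and 6.44 with METH, so only METH array 5 stood clearly above the saline range. It was detected on 2 of 4 saline and 5 of 5 METH arrays, and its log2 fold change was 0.32 ± 0.22 SE (adjusted p = 0.625, limma), or 0.12 without METH array 5.

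**Figure D2:**
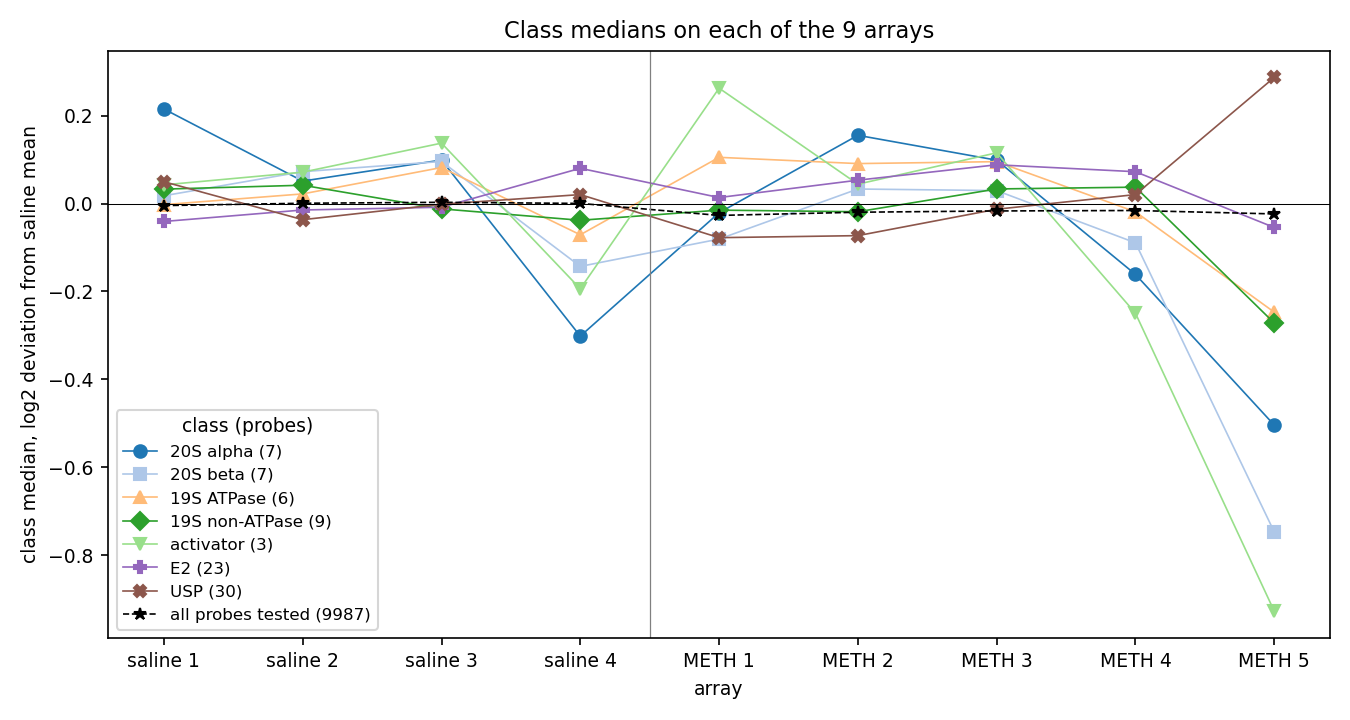
Median over each class of the log2 deviation from the saline mean (vertical axis) on each of the 9 arrays (horizontal axis), with the number of probes of the class in the key; lines only join points of a class. On METH array 5 the 20S beta subunits are at -0.75 and the USP deubiquitinases at 0.29, while all probes together are at -0.024.

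Proteasome activators stood on both sides of saline on METH array 5. Psme1 and Psme2 encode the subunits of the 11S cap, which opens the 20S core without ATP, and Psme4 encodes a single-chain activator found in nuclei. Psme1 had levels of 9.59, 9.60, 9.51 and 9.42 with saline and 9.15, 9.57, 9.49, 9.28 and 8.55 with METH. Its log2 fold change was -0.32 ± 0.18 SE (adjusted p = 0.555, limma), and -0.16 without METH array 5. Psme4 was highest on METH array 5, at 8.85 against 8.01 to 8.49 on the other METH arrays and 8.01 to 8.34 with saline, and its log2 fold change was 0.20 ± 0.16 SE, or 0.093 without that array. Assembly chaperones, which guide subunits into the particle, included Psmg1 at -0.20 ± 0.13 SE (-0.11 without METH array 5) and Psmd5 at 0.17 ± 0.30 SE. The latter spread from 5.34 to 7.14 over the 4 saline arrays alone. Its estimates within slides were opposite, 0.98 on slide 1 and -0.59 on slide 2, and neither passed (adjusted p = 0.374 and 0.521, limma).

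Of 4 E1 genes with a matching probe, 2 were detected. No probe was named Uba1, so that gene could not be assessed, though 8730 of 22523 probes had no name. Uba3, the catalytic subunit of the enzyme that activates the ubiquitin-like protein NEDD8, was at 0.098 ± 0.16 SE. Uba6, an E1 for ubiquitin itself, was at 0.027 ± 0.18 SE. Both intervals lay within 1.5-fold. Without METH array 5 the estimates were 0.027 for Uba3 and -0.059 for Uba6.

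The E2 conjugating enzymes held the extremes in both directions. Their 23 probes for 22 genes had log2 fold changes with a median of 0.074, with 15 estimates above and 8 below 0 and 0 past the threshold. Ube2j1, an E2 anchored in the endoplasmic reticulum that serves the disposal of misfolded proteins, had levels of 6.78, 6.26, 6.47 and 7.20 with saline and 6.69, 7.03, 7.10, 7.39 and 7.52 with METH. METH arrays 4 and 5 lay above every saline array and the other 3 within the saline range. The log2 fold change was 0.47 ± 0.21 SE (95% interval 0.0079 to 0.93, unadjusted p = 0.047, adjusted p = 0.449, limma), and 0.38 without METH array 5.

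Ube2b, a homologue of yeast Rad6 that acts in DNA repair and on histones, had the lowest estimate of all members. Its levels were 6.24, 7.04, 7.53 and 7.38 with saline and 7.02, 5.98, 6.89, 6.62 and 5.86 with METH. Saline array 1 lay among the low METH arrays, and the log2 fold change of -0.58 ± 0.30 SE did not pass (95% interval -1.22 to 0.072, adjusted p = 0.513, limma). It was -0.14 within slide 1 and -0.998 within slide 2. Ube2q2 was at 0.35 ± 0.16 SE, with 7.56, 6.91, 7.38 and 7.68 for saline and 7.64, 7.67, 7.61, 7.73 and 8.00 for METH. Saline array 2 was the lowest, and saline array 4 was above 3 of the 5 METH arrays.

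Further E2 genes stood at either end of the range on METH array 5. Ube2k, which builds the chains that mark proteins for the proteasome, was at 0.30 ± 0.20 SE and highest on that array, and at 0.18 without it. Ube2v2, an inactive partner of Ube2n, was at 0.25 ± 0.17 SE and also highest there, and at 0.12 without it. Ube2d1, which works with many E3 ligases, was lowest on it at 7.31, against 8.45 to 8.81 on the other METH arrays, and its log2 fold change was -0.051 ± 0.26 SE with and 0.21 without that array. Ube2l6, the E2 of an interferon-induced ubiquitin-like protein, was at -0.27 ± 0.16 SE, with its lowest value there too. In all, 10 of the 23 E2 probes were lowest and 7 highest on METH array 5, and the class median on it was -0.055.

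**Figure D3:**
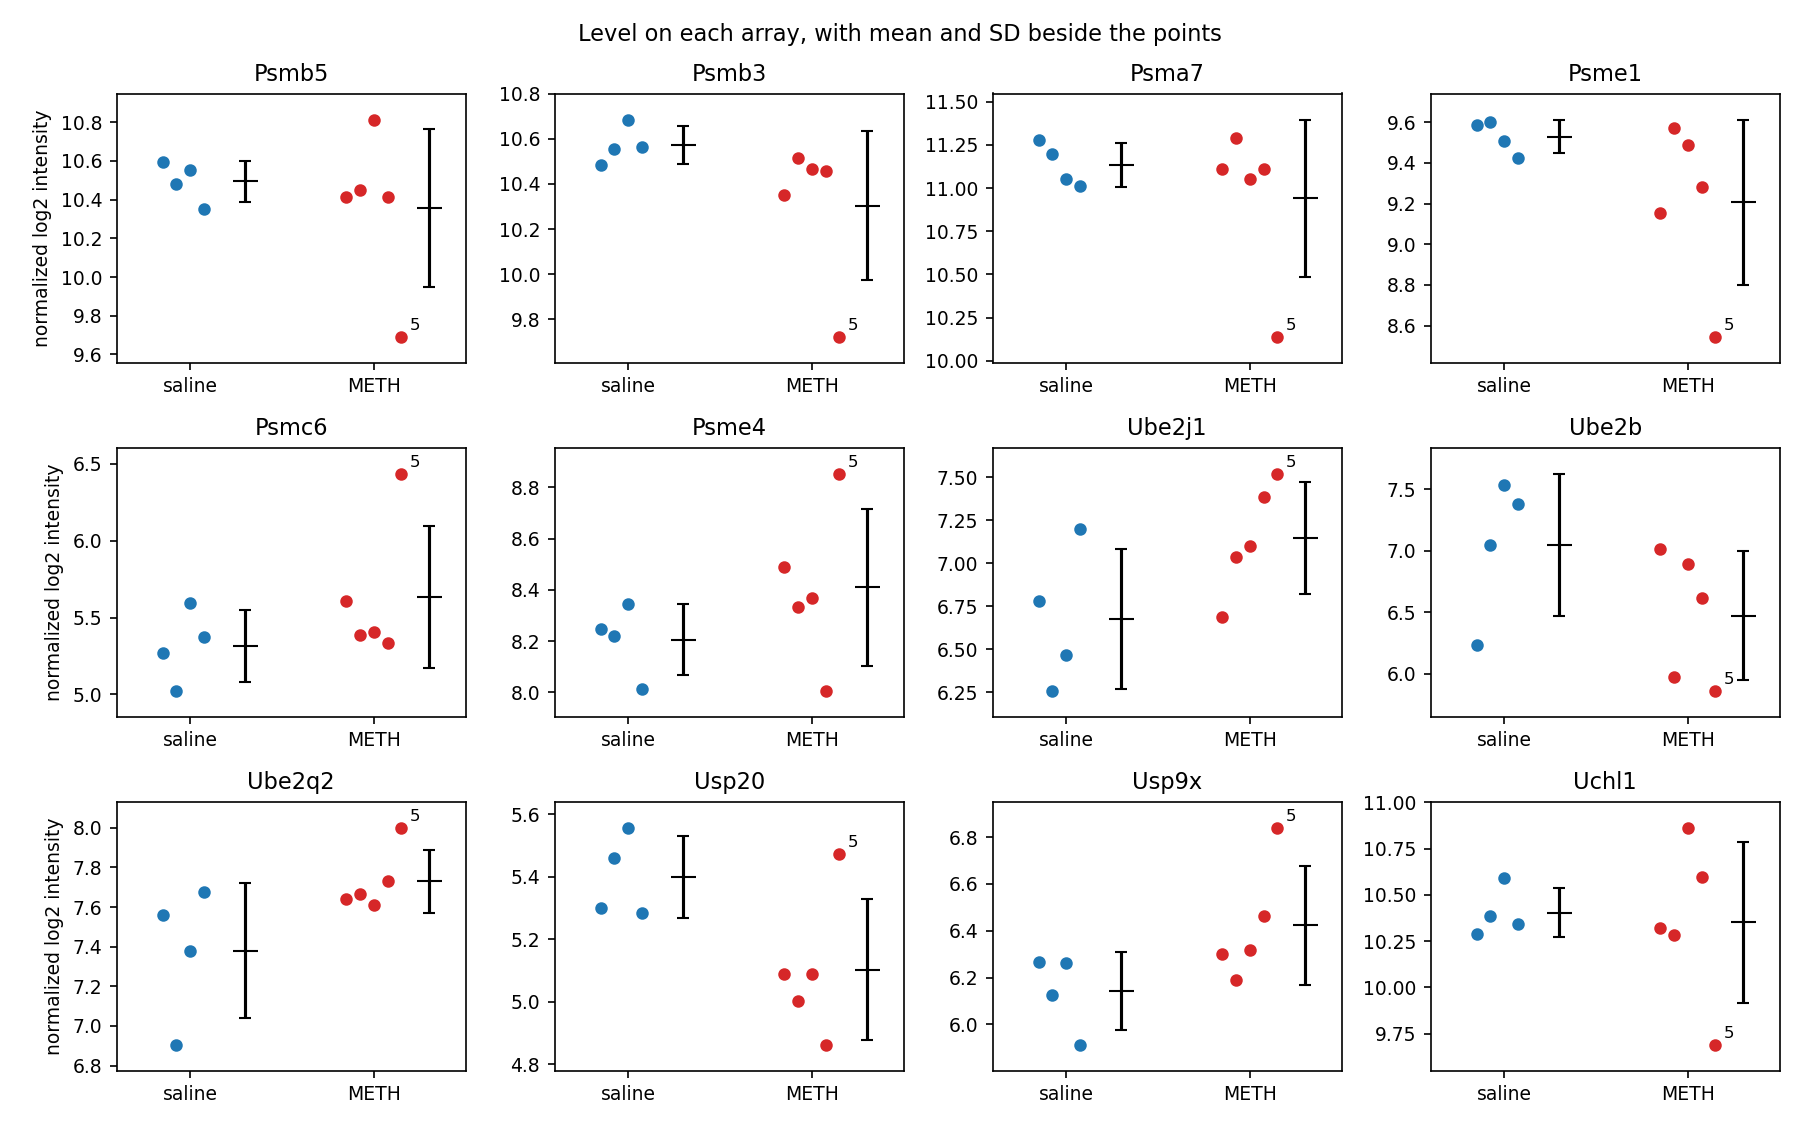
Normalized log2 intensity of chosen members on each of the 4 saline (blue) and 5 METH (red) arrays, with the group mean and SD beside the points and METH array 5 marked 5. Each panel has its own vertical scale, which does not start at 0; saline and METH points overlap in every panel, and METH array 5 is the lowest point for Psmb5, Psmb3, Psma7, Psme1, Ube2b and Uchl1.

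Of the UCH hydrolases, Uchl1, one of the most abundant proteins of neurons, had levels of 10.29, 10.39, 10.59 and 10.34 with saline and 10.32, 10.28, 10.86, 10.60 and 9.69 with METH. The METH arrays enclosed the saline range on both sides, and the log2 fold change was -0.051 ± 0.20 SE, or 0.11 without METH array 5. Uchl5, a deubiquitinase that docks on the 19S particle, was at 0.077 ± 0.13 SE, or 0.013 without that array.

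The USP deubiquitinases, 30 probes for 29 genes, were centred on a log2 fold change of 0.033 (median), and 18 estimates above and 12 below 0. Usp14, which trims chains at the proteasome, was at 0.062 ± 0.12 SE, and Usp5, which recycles free chains, at -0.051 ± 0.12 SE. Usp2 was at 0.030 ± 0.15 SE, with 8.85, 9.09, 9.01 and 8.95 for saline and 8.88, 8.81, 9.40, 9.19 and 8.74 for METH. All 3 had intervals within 1.5-fold. Without METH array 5, Usp14 was at -0.010 and Usp2 at 0.096.

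Usp20 had the smallest p of this class. Its levels were 5.30, 5.46, 5.56 and 5.28 with saline and 5.09, 5.00, 5.09, 4.86 and 5.47 with METH, so METH arrays 1 to 4 lay below every saline array and METH array 5 among them. It was above background on 3 of 4 saline arrays and on METH array 5 alone of the METH arrays, which leaves the size of its log2 fold change of -0.30 ± 0.14 SE uncertain (unadjusted p = 0.048, adjusted p = 0.451, limma). Usp3, which acts on histones, was at -0.24 ± 0.12 SE, with 7.88, 7.48, 7.74 and 7.71 for saline and 7.55, 7.53, 7.46, 7.33 and 7.43 for METH. Usp29 was at -0.29 ± 0.20 SE. Usp9x, a large X-linked enzyme, was at 0.28 ± 0.15 SE, Usp32 at 0.43 ± 0.27 SE and Usp13, a relative of Usp5, at 0.24 ± 0.15 SE. Without METH array 5, Usp9x was at 0.18 and Usp32 at 0.20.

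In contrast to the 20S core, the USP class stood higher on METH array 5. Its median deviation there was 0.29, against -0.078 to 0.020 on METH arrays 1 to 4, and 16 of the 30 probes were highest of all arrays on it, where 24.3% of all probes were. Usp32 reached 6.91 on it, against 5.36 to 6.19 on the other METH arrays and 5.20 to 5.91 with saline. Without it the class median was -0.034, and 18 of 30 estimates were below 0. On METH array 5 the median deviation of other ubiquitin enzyme classes was 0.38 for E1 (2 probes), -0.055 for E2 and -0.19 for UCH. Usp6nl, a member by its symbol whose product acts on Rab proteins and is no deubiquitinase, was at -0.14 ± 0.12 SE.

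**Figure D4:**
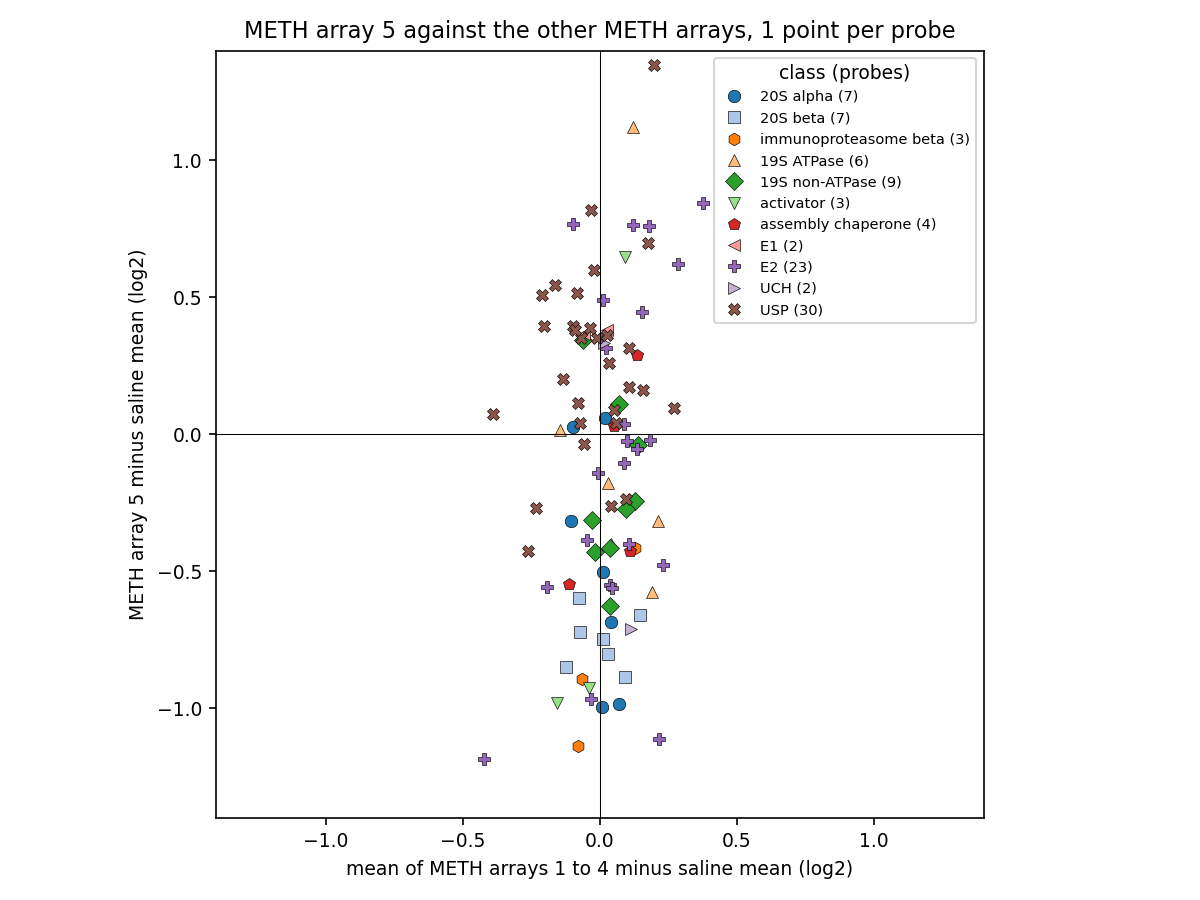
Deviation from the saline mean on METH array 5 (vertical axis) against the mean deviation on METH arrays 1 to 4 (horizontal axis), both log2, for 96 member probes marked by class (Usp6nl is left out). The points spread far more along the vertical axis, from -1.18 to 1.35, with the 20S beta subunits between -0.88 and -0.60. The vertical axis holds 1 array and the horizontal axis a mean of 4. Averaging by itself narrows the horizontal spread, so the widths of the axes cannot be compared directly.

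Other measures moved with METH array 5 beside these classes. The median deviation on it was -0.77 for 64 probes of cytosolic ribosomal protein genes and -0.66 for 59 probes of respiratory chain and ATP synthase genes, against -0.14 to 0.026 and -0.042 to 0.11 on METH arrays 1 to 4. These 2 families were chosen after the array was seen to stand apart. The 10 striatal markers had a median of -1.13 on it and -0.58 to -0.19 on METH arrays 1 to 4. Their summed level was 17447 to 21135 with saline and 8148 to 17718 with METH, none of the 10 was higher with METH, and 0 passed. Of 10 cortical markers written down, 5 had a named probe and 4 were detected, only 1 of them on every array. The estimates of 3 of the 4 were higher with METH. The median of the 4 was 1.57 on METH array 5, 1.18, 1.53 and 1.49 on METH arrays 1, 3 and 4, and -0.41 on METH array 2. With saline it was -0.39 to 0.70, highest on saline array 4. The summed level of the 4 overlapped, at 2617 to 3235 with saline and 2165 to 3294 with METH. On METH array 5 the marker medians were -0.46 for microglia, 0.34 for astrocytes and -0.28 for oligodendrocytes, against -0.24 to 0.028, -0.12 to 0.15 and -0.033 to 0.12 on METH arrays 1 to 4. The hemoglobin gene Hbb, the 1 blood marker detected of 4 written down, was at -1.91 on it. Hbb was at -0.54 to 0.085 on METH arrays 1 to 4 and at -0.65 to 0.42 with saline. The cortical median was above its saline range on METH arrays 1, 3, 4 and 5, so as a covariate it partly follows the treatment. With it the 20S alpha median was 0.11 and the beta median -0.031. With all probes split into 5 bins of mean level, the median deviation on METH array 5 was -0.046 to 0.016 in every bin. Quantile normalization gives all arrays the same distribution of levels, so bin medians near 0 were largely set in advance. Of the 14 20S probes, 12 were in the brightest bin. METH array 5 also had the largest share of probes above background, at 47.3%. The part of these cell type markers in the class medians was not tested.

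Other genes of the ubiquitin system, from a list of 110 symbols, were measured by 72 probes for 68 genes. None rose or fell past the threshold (0 of 72, limma; 6 at an unadjusted p under 0.05, where 11% of all probes were), and their median log2 fold change was 0.013. The groups did not overlap for 3 of the 72 (Siah2, Btrc and Keap1), a share near the 4.26% of all probes. Siah2, an E3 ligase gene, came closest. Its levels were 7.0, 7.08, 7.10 and 7.10 with saline and 8.10, 8.24, 7.81, 7.87 and 7.25 with METH, so all 5 METH arrays lay above all 4 saline arrays, METH array 5 by the least. The log2 fold change was 0.78 ± 0.18 SE (95% interval 0.39 to 1.17, adjusted p = 0.110, limma). Without METH array 5 it was 0.93 ± 0.12 SE and passed (adjusted p = 0.0032, limma), and it also passed within slide 1 (adjusted p = 0.029) but not within slide 2 (adjusted p = 0.572).

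Keap1, which holds the stress factor Nrf2 for ubiquitination, lay below all saline arrays on every METH array. Its levels were 9.12, 9.07, 9.16 and 9.48 with saline and 8.78, 8.86, 8.66, 8.96 and 8.93 with METH, and its log2 fold change was -0.37 ± 0.12 SE (adjusted p = 0.271, limma). Btrc, an F-box component of an E3 ligase, was at 0.33 ± 0.13 SE with METH above saline on all arrays. Ubqln1, a shuttle to the proteasome, was at 0.28 ± 0.12 SE, Siah1 at 0.31 ± 0.14 SE, and Cul2, a scaffold of E3 ligases, at -0.33 ± 0.15 SE. Rnf128 and Fzr1 were at -0.22 ± 0.13 SE and -0.29 ± 0.17 SE.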

How the data were processed

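Intensities were deposited by the authors after BeadStudio, whose version is not given in the sources used here; the program is named in the submitters' processing notes. They are background-subtracted, as values below 0 show, and arrays were not scaled to one another. Each probe of the 1 h arrays has a deposited detection p-value, low for bright probes, whereas the later arrays have a deposited detection score, high for bright probes, which was not used. The 2 deposited tables held the same intensities at 1 h (largest difference 0).

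For the 9 arrays at 1 h, limma 3.58.1 in R 4.3.3 was used. Its neqc function estimates background with the help of detection p, then applies an offset of 16, a log2 transform and quantile normalization. The 9987 probes that passed the detection filter (p under 0.05 on 4 or more arrays) went into lmFit and an eBayes step with a trend on intensity. Tests were two-sided and adjusted over all 9987 by Benjamini-Hochberg, with a threshold of 0.05. The number of arrays limits the precision. The tests were checked on simulated data.

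Members and lists were chosen with earlier results of these data known. The rule named members past the threshold, the 8 smallest p in each direction, the highest and lowest estimate of each role class, and a fixed list, of which some genes, Psmd14, Psmf1 and Uba1 among them, were not analysed here. From the other ubiquitin genes it named the 4 smallest p in each direction. Genes measured by 2 detected probes (Psmb10, Ube2r2 and Usp16) kept both. Names came from the platform annotation, and all 117 matching probes had their Entrez ID in the RefSeq table, with 0 symbols changed. Alternatives left out the background correction, the scaling, the detection filter, the trend or each array in turn, added array weights, a block for slide or for replicate number, or a cortical marker covariate, or took each slide alone.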

Additional observations from a re-analysis of the deposited data

Results flagged for a closer look

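In 100 tests of class medians and named probes, one array lay far from the others of its group 14 times, and 11 of these were METH array 5. These 100 tests are not independent, as the classes overlap and hold named probes, so the same array can be counted more than once. Over all members taken probe by probe, 20 of 194 groups were flagged (10.3%), 13 of them on METH array 5. Chance flags about 1 in 20 groups, and 7.13% of groups were flagged over all probes. Of those 1425 flags over all probes, 566 were on METH array 5. On METH array 5 the median deviation from saline was -0.75 for 20S beta subunits, -0.70 for all 20S subunits, -0.27 for 19S non-ATPase subunits, -0.43 for all proteasome classes and 0.29 for USP deubiquitinases. On saline array 4 the median of all 20S subunits was -0.27.

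Among named probes, METH array 5 was far below the other METH arrays for Psmd13 (8.11 on the normalized log2 scale), Ube2d1 (7.31), Psmb3 (9.72), Psma7 (10.14) and the second Psmb10 probe (7.16), and far above them for Psmc6 (6.44). METH array 4 was far below for Psma1 (6.01), and METH array 2 far above for Usp29 (6.22).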

How the results depend on the processing

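No member passed under any of the 19 alternatives run, where the smallest adjusted p among members was 0.087 (limma), in unscaled values. The sign of the estimate, called for none, changed for 39 of 97 members in unscaled values, 34 with the cortical covariate and 27 without METH array 5. Unscaled values shifted the median of all probes to 0.23 on the log2 scale. There the member median was 0.25, with 0.26 for 19S ATPases, 0.25 for other 19S subunits, 0.31 for assembly chaperones, 0.33 for E1, 0.34 for E2, 0.28 for UCH, 0.28 for USP, 0.17 for all proteasome classes and 0.32 for all ubiquitin enzymes. The 20S median was 0.11 there, above 0, and -0.12 less that shift. Over all classes, medians less the shift ran from -0.23 (activators) to 0.11 (E2). Within slide 2 assembly chaperones were at -0.23 and E2 at 0.016. Probes called over all probes numbered 52, and 225 in unscaled values, 251 with array weights, 16 within slide 2, 82 with the replicate block, and 31 (without saline array 2) to 250 (without METH array 2) with single arrays left out. Of other ubiquitin genes 1 (Siah2) passed in unscaled values, with array weights, within slide 1, with the replicate block and without METH array 5, and 0 to 1 with single arrays left out. METH array 5 is the only array of its number, so the replicate block takes it out of the estimate. Siah2 was thus at 0.93 both with that block and without METH array 5, and these are not separate checks. Same-numbered arrays had deviations correlating at 0.072, 0.095, 0.080 and 0.25, and 2 of 8 arrays correlated best with their own number, so the numbers were not taken as pairs; METH array 5 has no partner, and the replicate block changed no member's call. Probe signal over background limits fold changes of the 10 members detected on 4 to 8 arrays.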
